A study of Mus musculus with 12 samples.

Results

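The question here is which genes of mouse macrophages answer LPS differently when the peptide hBD3 is present. The measure is a contrast of contrasts, calculated for each probe over all 12 arrays of the series. It is the log2 difference of LPS plus hBD3 minus LPS, less the log2 difference of hBD3 minus untreated. The same number is the LPS response in the presence of hBD3 minus the LPS response in its absence, so a negative contrast means that LPS raised a transcript less, or lowered it more, in BMDM that also received hBD3. It was obtained for 25697 probes, which stand for 16770 named genes, and tested in limma with and without the replicate number of the arrays as a block.

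BM-derived macrophages (BMDM) of Balb/c mice, grown from femoral marrow in M-CSF, were kept overnight without M-CSF and treated for 1 h in 4 groups of 3 arrays each: LPS plus hBD3, LPS, hBD3 and untreated. LPS was given at 50 ng/mL per the labels, which state 5 mg/mL for hBD3 where the study's methods state 5 μg/mL, and which state no dose for the combination. Each group stands for 3 mice according to the series' design text, but neither that text nor the labels say whether arrays with the same replicate number come from the same mouse. Only RNA at a single time was measured, so levels of protein and later changes were not covered, and in cultures of this kind fewer responding cells and less RNA per cell cannot be told apart.

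LPS from Gram-negative bacteria is sensed by TLR4 with its co-receptor MD-2, and the adaptors MyD88 and TRIF carry the signal on to NF-κB and the MAP kinases. The first transcripts to rise are immediate early genes, which need no new protein synthesis: transcription factors, cytokines and chemokines, and a set of inhibitors (phosphatases, IκB proteins, SOCS proteins and RNA decay factors) that close the response down again. hBD3 is a cationic, disulfide-bonded host defense peptide of epithelia.

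Between 8958 and 9923 probes per array were detected at a detection p under 0.01. Of 13 measured macrophage markers, 12 (among them Adgre1, Cd68, Itgam and Spi1) were detected on all 12 arrays, against 1 of 13 for neutrophils and granulocytes (S100a8), 0 of 11 for lymphocytes, 0 of 10 for dendritic cells and 0 of 10 for stromal and erythroid cells, and 0 genes of these lists passed the test of the contrast. The log2 of the summed signal of the macrophage markers lay between 15.92 and 15.94 with LPS plus hBD3, 15.79 and 15.93 with LPS, 15.86 and 15.93 with hBD3 and 15.89 and 15.94 untreated. LPS replicate 1 stood apart: its mean correlation with the other arrays was 0.968, whereas the others lay between 0.987 and 0.990. Results that rest on this array are therefore also given without it.

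Without the block, 0 of 25697 probes (0%) passed an adjusted p under 0.05, and the lowest was 0.0585 for Ppp1r15a. At an unadjusted p under 0.05 the contrast was negative for 365 probes and positive for 292. With the block, 20 probes of 18 genes had a negative contrast past the threshold (0.0778% of all probes) and 0 had a positive one (0%). At an unadjusted p under 0.05 there were 557 negative and 445 positive probes. The contrast of a probe is the same in both fits and only its error differs. The calls with the block therefore rest on the assumption that equal replicate numbers belong together. The 18 genes, in order of contrast, were Egr1, Socs3, Dusp2, Dusp1, Zfp36, Gdf15, Cd69, Ier3, Phlda1, Csrnp1, Tnfaip3, Nfkbid, Irf1, Ppp1r15a, Junb, Cdc42ep2, Nfkbie and Plk2. By gene list, 4 of them were immediate early transcription factors, 4 were immediate early genes of other function, 3 were MAP kinase phosphatases or SOCS proteins and 3 were NF-κB proteins or inhibitors. The other 4 were a cytokine (Gdf15), an mRNA decay factor (Zfp36), a gene of the integrated stress response (Ppp1r15a) and an activation antigen (Cd69).

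For these 20 probes the LPS response was -0.01 to 1.38 on the log2 scale with hBD3, against 0.87 to 4.34 without it. With the block, 0 of the 20 passed the test of LPS plus hBD3 minus hBD3, which 0 of all probes passed (0%; 853 higher and 667 lower at an unadjusted p under 0.05). The lowest limma adjusted p in that test, 0.05885, lay just above the threshold and was that of Egr1, Phlda1, Ier3 and Nfkbid among others. All LPS plus hBD3 arrays lay above all hBD3 arrays for 9 of the 20 probes and for 1355 of all 25697. All 20 passed the test of LPS minus untreated, in which 71 of all probes were higher (0.276%). Over the 18 genes a median of 25.7% of the log2 response remained with hBD3, and by replicate number this median was 22.0%, 24.8% and 26.2%. It was 12.3% when arrays were scaled to equal medians in place of quantile normalization. The contrast was negative on all 3 replicate numbers for all 20 probes and for 3435 of all 25697. On linear signals it was also negative for all 20, and for 13241 of all probes. These responses and signs come from the arrays that chose the genes and describe them.

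**Figure D1:**
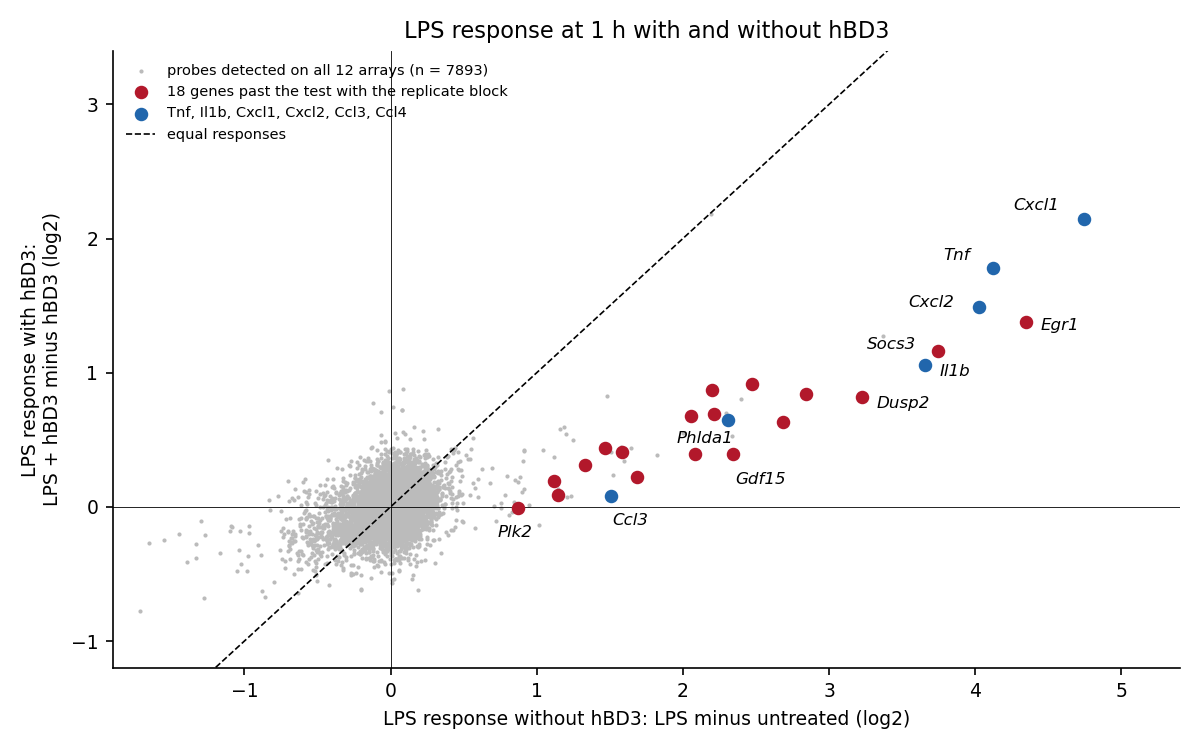
Log2 LPS response with hBD3 (vertical axis, LPS plus hBD3 minus hBD3) against the response without it (horizontal axis, LPS minus untreated) for the 7893 probes detected on all 12 arrays in gray, with the 18 genes past the blocked test in red (17 of them detected on all arrays and Cd69 on 11) and 6 cytokine and chemokine genes in blue. All marked genes lie below the dashed line of equal responses, between -0.01 and 2.15 on the vertical axis and between 0.87 and 4.75 on the horizontal axis.

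RefSeq promoter windows of build GRCm38.p6, holding 250 bases before and 50 bases after an annotated start, were used for 15 of the 18 genes, with 23 windows. For Cd69 and Phlda1 no window was found by gene symbol. Egr1, the gene with the most negative contrast, was left out of this search, so the letters at its start were not examined. They are printed for 4 genes with matches, to show the letters that stand at the starts of genes whose LPS response was smaller with hBD3. Gdf15, Dusp2, Socs3, Irf1, Zfp36 and Cdc42ep2 had windows without a match. Capitals mark matches to 4 short patterns read on both strands: a κB-like GGANNTTCC, a cAMP response element TGACGTCA, an AP-1 site TGANTCA and the letters TATAAA of a TATA box, wherever they stand. The windows are those of Ier3 (chr17:35821463-35821762 on the plus strand), Tnfaip3 (chr10:19015361-19015660 on the minus strand), Dusp1 (chr17:26508423-26508722 on the minus strand) and Ppp1r15a (chr7:45526219-45526518 on the minus strand).
Ier3: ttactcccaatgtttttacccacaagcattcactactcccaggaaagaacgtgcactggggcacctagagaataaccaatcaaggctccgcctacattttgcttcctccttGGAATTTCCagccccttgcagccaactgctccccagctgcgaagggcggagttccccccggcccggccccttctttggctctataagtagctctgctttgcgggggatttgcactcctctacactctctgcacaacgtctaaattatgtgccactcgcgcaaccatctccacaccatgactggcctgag
Tnfaip3: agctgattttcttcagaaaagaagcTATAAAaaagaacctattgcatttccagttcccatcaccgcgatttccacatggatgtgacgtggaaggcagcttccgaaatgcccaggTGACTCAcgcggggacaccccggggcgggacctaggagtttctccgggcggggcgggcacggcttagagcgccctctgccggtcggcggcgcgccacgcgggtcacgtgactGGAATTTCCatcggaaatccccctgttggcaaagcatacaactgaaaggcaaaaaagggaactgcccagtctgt
Dusp1: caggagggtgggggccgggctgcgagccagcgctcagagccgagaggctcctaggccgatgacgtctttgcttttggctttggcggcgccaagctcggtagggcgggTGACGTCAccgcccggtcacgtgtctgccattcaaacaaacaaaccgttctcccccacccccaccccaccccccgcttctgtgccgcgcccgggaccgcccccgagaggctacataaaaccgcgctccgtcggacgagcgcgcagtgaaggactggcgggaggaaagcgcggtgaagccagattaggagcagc
Ppp1r15a: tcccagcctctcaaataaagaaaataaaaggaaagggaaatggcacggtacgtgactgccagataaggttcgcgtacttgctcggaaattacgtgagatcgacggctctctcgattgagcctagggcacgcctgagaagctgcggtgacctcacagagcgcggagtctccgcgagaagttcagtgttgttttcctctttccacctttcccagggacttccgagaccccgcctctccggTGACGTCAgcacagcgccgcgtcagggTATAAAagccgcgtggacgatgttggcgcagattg
The κB-like letters stood in windows of 3 of the 15 genes (Ier3, Tnfaip3 and Nfkbie) and in those of 4.86% of all 27025 genes. The cAMP response element stood in windows of 4 (Dusp1, Nfkbid, Plk2 and Ppp1r15a) and in 2.03% of all genes, the AP-1 letters in 3 (Csrnp1, Nfkbie and Tnfaip3) and in 8.97%, and TATAAA in 3 (Junb, Ppp1r15a and Tnfaip3) and in 15.7%. The TATAAA letters began at -225 (Tnfaip3), 0 (Junb) and 15 (Ppp1r15a) relative to the annotated start. A match describes letters in the window and is no measured site. Of κB letters only the form GGANNTTCC was searched. Windows without it, such as those of Irf1 and Nfkbid, may hold other κB forms, which were not counted.

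Among the transcription factors, Egr1, a zinc finger protein induced by MAP kinase signaling, had the most negative contrast of all probes. Its log2 signal was 7.78, 9.22 and 8.96 with LPS plus hBD3, 10.35, 11.84 and 11.40 with LPS, 6.61, 7.93 and 7.28 with hBD3 and 6.60, 7.31 and 6.64 untreated. The LPS plus hBD3 arrays lay below all LPS arrays. Replicate number 1 was the lowest of its group in each of the 4 groups, so the SD within groups was large while the differences within replicate numbers were similar. The LPS response of Egr1 was 2.60-fold with hBD3 and 20.3-fold without it. The contrast was -2.96 ± 0.24 (SE with the block, n = 3 arrays per group), with an adjusted p of 0.00156 with the block and 0.9997 without it in limma.

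Csrnp1, which encodes a nuclear protein, had log2 signals of 6.50, 6.79 and 6.60 with LPS plus hBD3, 7.68, 8.52 and 8.14 with LPS, 6.23, 6.58 and 6.40 with hBD3 and 6.36, 6.49 and 6.43 untreated. The LPS response with hBD3 was 1.17-fold against 3.22-fold without hBD3, for a contrast of -1.46 ± 0.15 (limma adjusted p 0.0061 with the block, 0.263 without). Irf1, an activator of interferon and interferon-stimulated genes, had a contrast of -1.17 ± 0.15 (0.0158 with the block, 0.9997 without). Junb, a subunit of AP-1, had -1.03 ± 0.12 (0.00799 with the block, 0.9997 without). Irf1 was measured by 5 probes, all negative (-1.44 to -0.79), of which 2 passed with the block. Fos, the partner of Junb in AP-1, had a contrast of -1.59 that did not pass (0.868 with the block), and its size differed between replicate numbers 1, 2 and 3 (-2.40, -1.41 and -0.96).

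The inhibitors of kinase and cytokine signaling made up the next group. Socs3, which blocks cytokine receptor signaling through JAK and STAT proteins, had log2 signals of 7.78, 8.44 and 8.47 with LPS plus hBD3, 10.14, 11.15 and 10.89 with LPS, 7.01, 7.37 and 6.82 with hBD3 and 6.90, 7.23 and 6.83 untreated. All LPS plus hBD3 arrays lay above the hBD3 arrays and below the LPS arrays. The LPS response was 2.24-fold with hBD3 and 13.4-fold without it, the contrast -2.58 ± 0.24 (limma adjusted p 0.00284 with the block, 0.105 without).

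Dusp2, a nuclear phosphatase that inactivates MAP kinases, had log2 signals of 7.84, 8.34 and 8.18 with LPS plus hBD3, 9.94, 10.87 and 10.93 with LPS, 7.21, 7.44 and 7.25 with hBD3 and 6.99, 7.73 and 7.35 untreated. Its groups were ordered like those of Socs3. The LPS response was 1.76-fold with hBD3 and 9.34-fold without. The contrast was -2.40 ± 0.20 (0.00156 with the block, 0.137 without), and another Dusp2 probe gave -1.81 (adjusted p 0.0138 with the block). Dusp1, the related phosphatase that acts on p38 and JNK, had log2 signals of 10.36, 10.63 and 10.29 with LPS plus hBD3, 11.79, 12.30 and 11.85 with LPS, 9.87, 10.06 and 9.46 with hBD3 and 9.74, 9.48 and 8.67 untreated. Here the LPS plus hBD3 arrays also lay between the groups, and the contrast was -2.05 ± 0.24 (0.00961 with the block, 0.308 without).

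Zfp36, or tristetraprolin, a protein that marks mRNAs with AU-rich elements such as that of Tnf for decay, had log2 signals of 10.16, 11.22 and 11.39 with LPS plus hBD3, 12.60, 12.91 and 12.94 with LPS, 9.42, 10.46 and 10.38 with hBD3 and 9.27, 10.50 and 10.16 untreated. Replicate number 1 was the lowest array of all 4 groups, and the contrast was most negative on it (-2.58, -1.65 and -1.77 on numbers 1, 2 and 3). The LPS response was 1.79-fold with hBD3 and 7.16-fold without it, the contrast -2.00 ± 0.23 (limma adjusted p 0.00799 with the block, 0.9997 without).

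**Figure D2:**
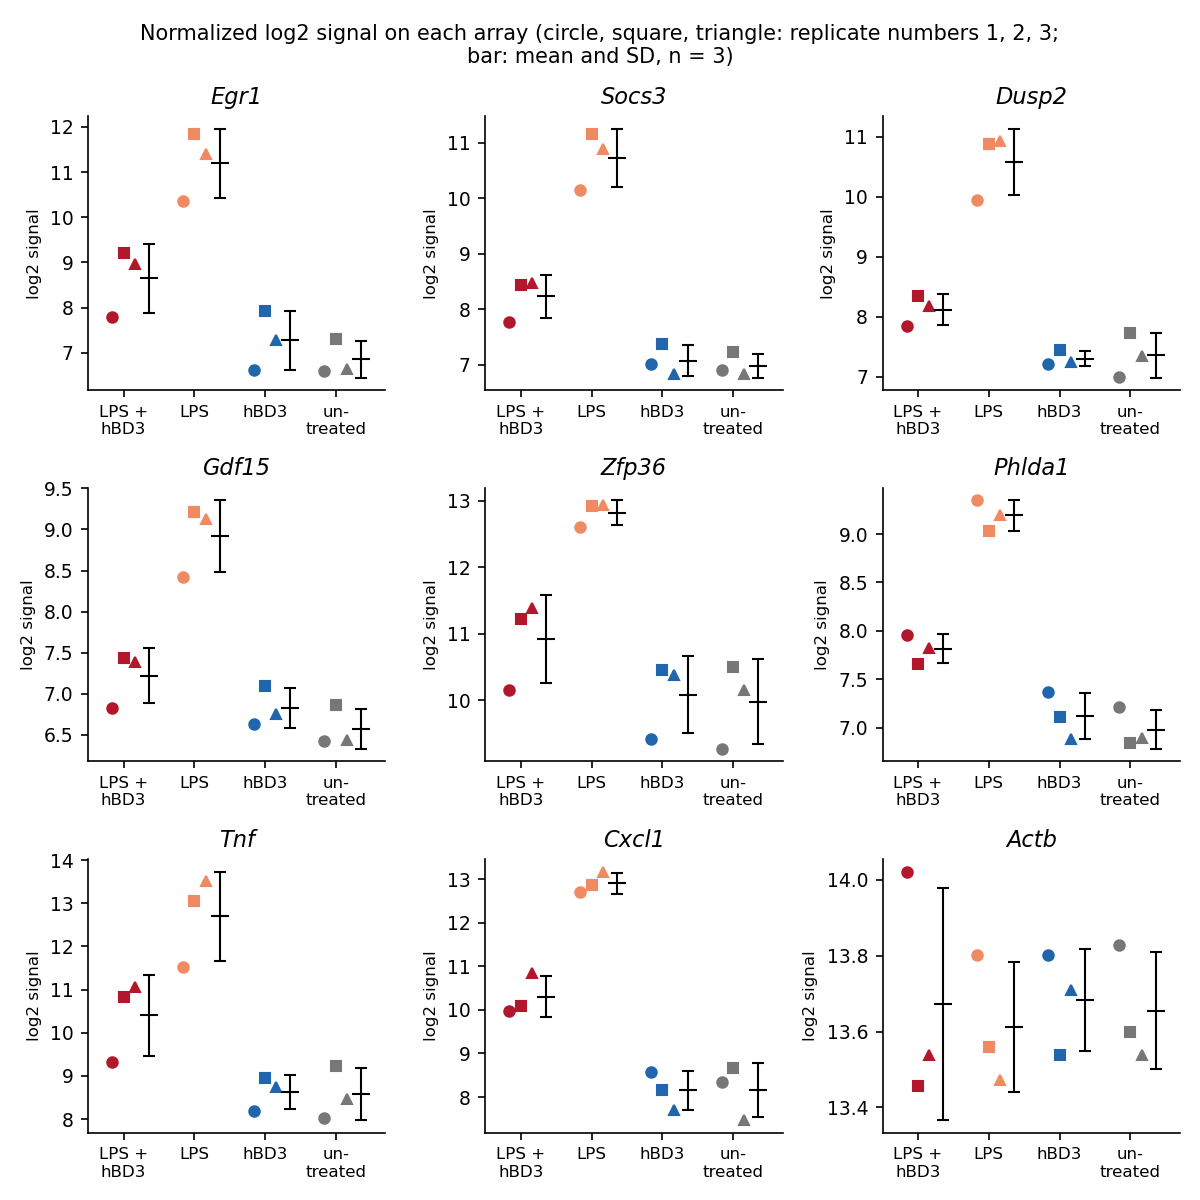
Normalized log2 signal (vertical axes) of 9 genes on each of the 12 arrays, by group, with a symbol for each replicate number and the mean and SD of 3 arrays beside it. In 8 of the 9 genes the LPS plus hBD3 arrays lie below all LPS arrays, while for Actb the 4 groups overlap.

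Within the NF-κB system the genes past the blocked test were inhibitors or IκB proteins, all of which are themselves NF-κB targets. Nfkbid, the atypical IκB protein IκBNS, had log2 signals of 7.98, 7.88 and 8.38 with LPS plus hBD3, 9.62, 9.72 and 9.86 with LPS, 7.17, 7.17 and 7.29 with hBD3 and 7.44, 7.69 and 7.47 untreated. It was the only gene of the 18 with all hBD3 arrays below all untreated arrays, an order that 1088 of all 25697 probes had. Of the 18 genes it kept the largest share of its response, 39.6% (1.83-fold with hBD3 and 4.60-fold without). Its contrast, -1.33 ± 0.15, was almost the same on the 3 replicate numbers (-1.37, -1.31 and -1.30), with an adjusted p of 0.00799 with the block and 0.0781 without.

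Tnfaip3, the ubiquitin-editing enzyme A20, had a contrast of -1.38 ± 0.19 (0.025 with the block, 0.9997 without). Nfkbie, or IκBε, had a contrast of -0.93 ± 0.13 (0.0322 with the block), but its signals overlapped between LPS plus hBD3 (9.03, 7.90 and 7.52) and LPS (9.84, 8.38 and 8.46). Replicate number 1 was more than 1 log2 unit above the others in each group. A dimmer Nfkbie probe gave -0.02 (adjusted p 0.999). Nfkbiz, or IκBζ, which acts with NF-κB p50 at promoters, was the nearest gene outside the threshold. Its log2 signals were 8.57, 9.27 and 9.90 with LPS plus hBD3, 10.80, 11.75 and 11.86 with LPS, 7.88, 8.20 and 7.85 with hBD3 and 7.84, 8.42 and 8.04 untreated, and its contrast was -2.10 ± 0.31 (0.0548 with the block, 0.9997 without). Nfkbia, the classical IκBα, had a contrast of -1.45 ± 0.25 that did not pass either (0.135 with the block).

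The other genes past the blocked test serve different functions. Phlda1, a pleckstrin homology-like domain protein, combined a moderate contrast with a small error: its log2 signals were 7.96, 7.66 and 7.83 with LPS plus hBD3, 9.35, 9.03 and 9.20 with LPS, 7.37, 7.11 and 6.89 with hBD3 and 7.21, 6.84 and 6.89 untreated. No array of LPS plus hBD3 reached the LPS arrays. The LPS response was 1.62-fold with hBD3 and 4.64-fold without, and the contrast was -1.52 ± 0.12 (limma adjusted p 0.00156 with the block, 0.0781 without). Gdf15, a stress-induced cytokine of the TGF-β family, had log2 signals of 6.83, 7.44 and 7.38 with LPS plus hBD3, 8.42, 9.21 and 9.13 with LPS, 6.63, 7.10 and 6.75 with hBD3 and 6.43, 6.86 and 6.44 untreated. With hBD3 its LPS response was 1.31-fold, against 5.08-fold without hBD3, and the contrast was -1.95 ± 0.17 (0.00156 with the block, 0.26 without).

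Ppp1r15a, or GADD34, which brings a phosphatase to the translation factor eIF2α, came nearest to the threshold without the block. Its log2 signals were 9.35, 9.12 and 9.21 with LPS plus hBD3, 10.15, 10.35 and 10.45 with LPS, 9.14, 9.08 and 9.19 with hBD3 and 9.19, 9.17 and 9.16 untreated, so that the LPS plus hBD3 arrays overlapped the hBD3 and untreated arrays and only LPS alone stood above them. The contrast was -1.06 ± 0.12, with an adjusted p of 0.00799 with the block and 0.0585 without, and 7.81% of the LPS response remained with hBD3. Cd69, a lectin-like early activation antigen, had a contrast of -1.69 ± 0.24 (0.0322 with the block, 0.091 without) and was the only gene of the 18 not detected on all arrays (11 of 12). Ier3, an immediate early gene linked to cell survival, had -1.56 ± 0.16 (0.00551 and 0.104), and Cdc42ep2, a binding partner of the GTPase Cdc42, -1.02 ± 0.13 (0.0208 and 0.0781).

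Plk2, a polo-like kinase, shows what the block does. Its log2 signals were 7.72, 9.53 and 9.19 with LPS plus hBD3, 8.27, 10.23 and 9.76 with LPS, 7.66, 9.60 and 9.20 with hBD3 and 7.59, 9.27 and 8.79 untreated, so that replicate number 1 lay more than 1 log2 unit below numbers 2 and 3 in every group and the groups overlapped. On numbers 1, 2 and 3 the contrast was -0.62, -1.03 and -0.99, and its mean of -0.88 had an SE of 0.11 with the block (adjusted p 0.0129) and 0.97 without it (0.9997). With Nfkbie it was the exception to the rule that all 3 LPS plus hBD3 arrays lay below all 3 LPS arrays, which held for 18 of the 20 probes and for 4.39% of all probes.

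**Figure D3:**
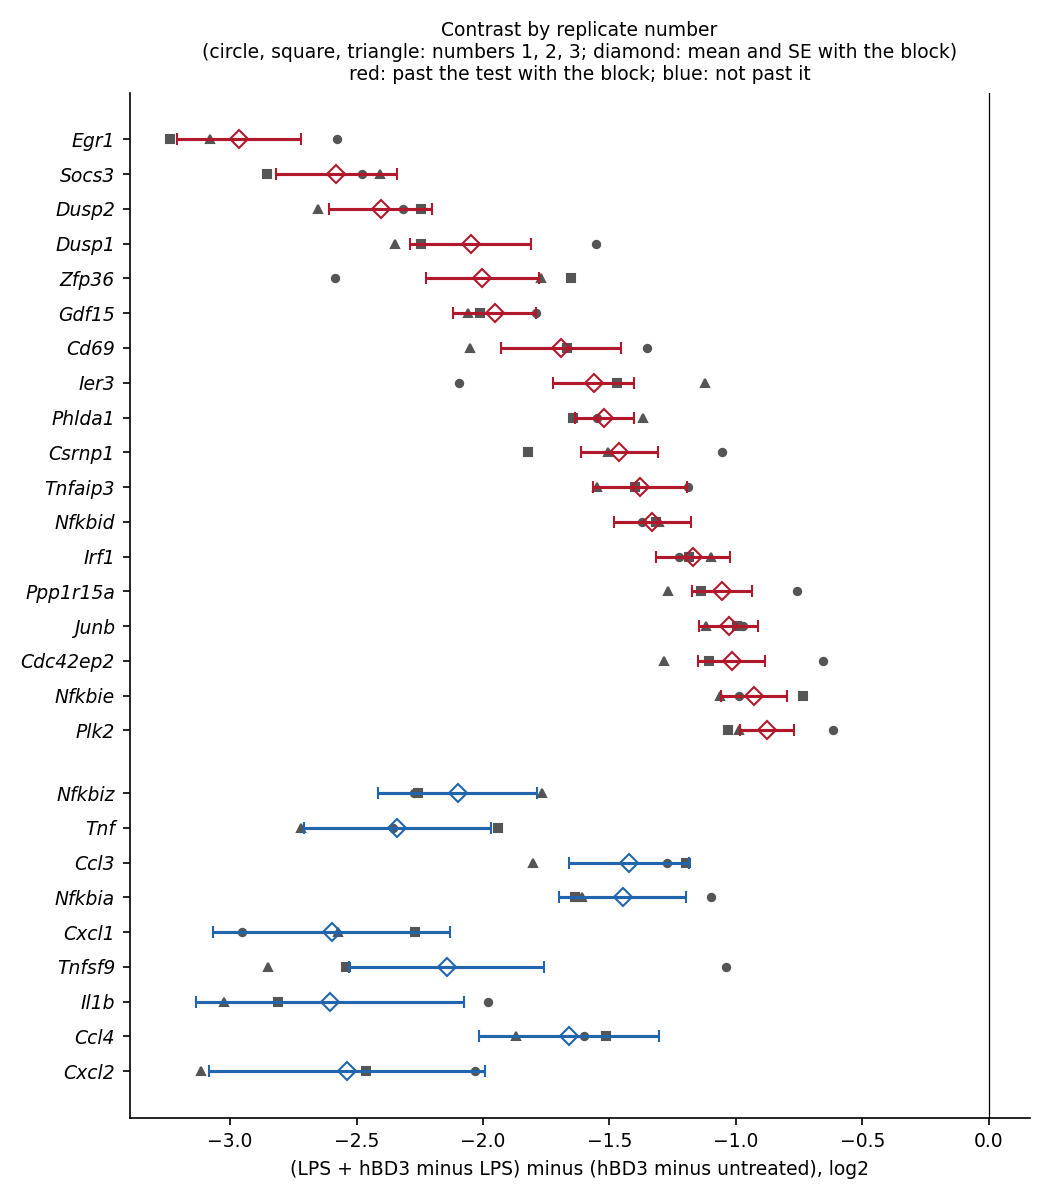
Contrast on the log2 scale (horizontal axis) of the 18 genes past the blocked test (red) and of 9 cytokine and NF-κB genes that did not pass it (blue), with a symbol for each replicate number and a diamond with the SE of the blocked fit. All points lie below 0, and the blue genes have errors of 0.24 to 0.55, against 0.11 to 0.24 for the red ones.

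The classical cytokines and chemokines had contrasts as large as those genes, but did not pass the test in either fit with all 12 arrays. Tnf, the main early cytokine of the LPS response, had log2 signals of 9.33, 10.84 and 11.05 with LPS plus hBD3, 11.54, 13.05 and 13.51 with LPS, 8.18, 8.96 and 8.74 with hBD3 and 8.03, 9.23 and 8.48 untreated. All LPS plus hBD3 arrays lay between the hBD3 and the LPS arrays. The LPS response of Tnf was 3.44-fold with hBD3 and 17.4-fold without it, and the contrast was -2.34 ± 0.37 (limma adjusted p 0.083 with the block, 0.9997 without).

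Cxcl1, a neutrophil chemokine, had log2 signals of 9.98, 10.08 and 10.84 with LPS plus hBD3, 12.70, 12.85 and 13.17 with LPS, 8.59, 8.17 and 7.71 with hBD3 and 8.35, 8.67 and 7.47 untreated, and no array of LPS plus hBD3 came within 1 log2 unit of the LPS arrays. Its LPS response was 4.43-fold with hBD3 and 26.9-fold without it, the largest response to LPS alone of all probes. The contrast was -2.60 ± 0.47 (0.151 with the block, 0.308 without). The related Cxcl2 had a contrast of -2.54 ± 0.55 (0.425 with the block).

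Il1b, the precursor of interleukin-1β, had log2 signals of 9.60, 8.15 and 8.62 with LPS plus hBD3, 11.42, 11.02 and 11.20 with LPS, 9.23, 7.09 and 6.88 with hBD3 and 9.07, 7.14 and 6.45 untreated. Replicate number 1 was the highest of its group without LPS, while the 3 LPS arrays had similar levels. Its contrast on numbers 1, 2 and 3 was -1.98, -2.81 and -3.02, with a mean of -2.61 ± 0.53 (0.321 with the block). Ccl4 and Ccl3, chemokines for monocytes and lymphocytes, had -1.66 ± 0.35 and -1.42 ± 0.24 (0.411 and 0.102 with the block). Tnfsf9, the ligand of the co-stimulatory receptor 4-1BB, had -2.14 ± 0.38 (0.151 with the block), although it was detected on only 7 of 12 arrays. Isg15, an interferon-induced ubiquitin-like protein, had a small contrast of -0.59 ± 0.09 (0.084 with the block), and its level on LPS replicate 1 (8.26) was the highest of all arrays.

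The effect of hBD3 itself on the 20 probes was -2.54 to -0.61 in the presence of LPS and -0.32 to 0.50 in its absence, where 10 lay above 0 and 10 below. Without LPS, 0 of the 20 passed the test of hBD3 minus untreated, which 0 of all probes passed (0%; 438 higher and 575 lower at an unadjusted p under 0.05). The hBD3 arrays overlapped the untreated arrays for 18 of the 20, and for 23612 of all 25697 probes. The largest effect without LPS was that on Dusp1, where LPS plus hBD3 minus LPS was -1.55 and hBD3 minus untreated 0.50. For Egr1 these differences were -2.54 with LPS and 0.42 without it.

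Genes with a large LPS response had negative contrasts throughout. Of the detected genes, 41 had LPS minus untreated above 1 on the log2 scale, and all 41 had a negative contrast, between -2.96 and -0.58 (median -1.38), against 3308 of 6743 detected genes (49.1%, median 0.00) over the array. That choice uses the LPS and untreated arrays that also enter the contrast, which favors negative values. Genes were therefore also chosen by the mean of the LPS responses with and without hBD3, a choice added after the data were seen. All 12 arrays, LPS replicate 1 among them, enter both this mean and the contrast. By this mean, 23 genes lay above 1 and all 23 had a negative contrast (median -1.95, 11 past the blocked test), with medians of -1.79, -1.67 and -1.87 on numbers 1, 2 and 3. Likewise 47 genes lay above 0.5 and all 47 were negative (median -1.21, 17 past it). Over the 23 genes 12.99% to 55.9% of the LPS response remained with hBD3, with a median of 31.1%.

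Among the genes that LPS alone raised above 1, some of the smallest contrasts in size were those of Gadd45b, a growth arrest gene (-0.58), Adora2b, an adenosine receptor (-0.61), Zc3h12a, the ribonuclease Regnase-1 (-0.65), Map3k8, the kinase TPL-2 (-0.66), and Id3, an inhibitor of DNA binding (-0.75). None of these 5 passed the test, with adjusted p between 0.0932 and 0.990 with the block. Their log2 LPS responses without hBD3 were themselves only 1.04 to 1.48. The share left with hBD3 was 40.2% for Id3, 41.0% for Adora2b, 45.4% for Map3k8 and 49.8% for Gadd45b. It was 43.2% for Tnf and 45.3% for Cxcl1, so a small contrast did not always mean a larger share. For Zc3h12a the log2 signals were 7.74, 7.59 and 7.92 with LPS plus hBD3, 8.41, 8.75 and 8.78 with LPS, 6.95, 7.02 and 6.81 with hBD3 and 6.84, 7.37 and 7.28 untreated, which left 55.9% of its response (1.78-fold with hBD3, 2.80-fold without). Even for this gene, the LPS plus hBD3 arrays lay below all LPS arrays.

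By gene list, the lowest medians over detected genes were those of the early response genes and of co-stimulatory and adhesion molecules. The lists were chosen with earlier results of these data known, and every gene past the blocked test is a member of a list. Counts and medians by list therefore describe these data and are no independent support. Over the array 49.1% of detected genes were below 0, and 18 of them passed the blocked test. A gene could count as detected through the LPS arrays alone, which favors negative contrasts. Over all measured members, 26 of 29 early cytokines and chemokines were below 0 (median -0.44). The same values were 18 of 28 and -0.09 for immediate early transcription factors, and 22 of 29 and -0.34 for other immediate early genes. For co-stimulatory and adhesion molecules they were 12 of 17 and -0.23, and for all genes 8598 of 16770 and -0.004. All 15 detected early cytokines and chemokines were below 0 (median -1.42, 1 past the blocked test), as were 13 of 17 immediate early transcription factors (median -0.55, 4 past it), 15 of 21 other immediate early genes (median -0.40, 4 past it) and 12 of 14 co-stimulatory and adhesion molecules (median -0.41, with Cd69 past it; Cd83 -1.14, Cd40 -0.87). Lists that mix induced and constitutive genes had medians near 0 with a few members far below: 10 of 16 MAP kinase phosphatases and SOCS proteins were below 0 (62.5%, median -0.14, 3 past it), 13 of 20 NF-κB proteins and inhibitors (65%, median -0.13, 3 past it), 5 of 7 mRNA decay factors (median -0.18, with Zfp36 past it) and 13 of 20 genes of the integrated stress response and heat shock (median -0.10, with Ppp1r15a past it).

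The receptors, adaptors and kinases of the pathway itself had a median contrast near 0, with detected members between -0.66 (Map3k8) and 0.44. Of 31 detected TLR signaling components 18 were below 0 (58.1%, against 49.1% of all detected genes; median -0.04) and 0 passed the test, and Tlr2 (-0.39) and Ly96, which encodes MD-2 (-0.36), had contrasts with adjusted p of 0.990 with the block. Interferon-induced genes (19 of 26 below 0, median -0.11), apoptosis genes (14 of 24, median -0.05), cAMP and adenosine signaling genes (4 of 9, median 0.03, with Dusp1 past the test) and housekeeping genes (7 of 10, median -0.06) had medians near that of all detected genes. Actb, read from its brightest probe, had a contrast of 0.03 and Gapdh of -0.14. Another Actb probe gave 1.24 (limma adjusted p 0.990 with the block), and its log2 signal was 7.99, 11.30 and 11.45 with LPS. When arrays were scaled to equal medians in place of quantile normalization, the median over all detected genes became -0.29 and the contrast of the brightest Actb probe -0.14. Relative to that median the 18 genes lay between -3.10 and -0.96.

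**Figure D4:**
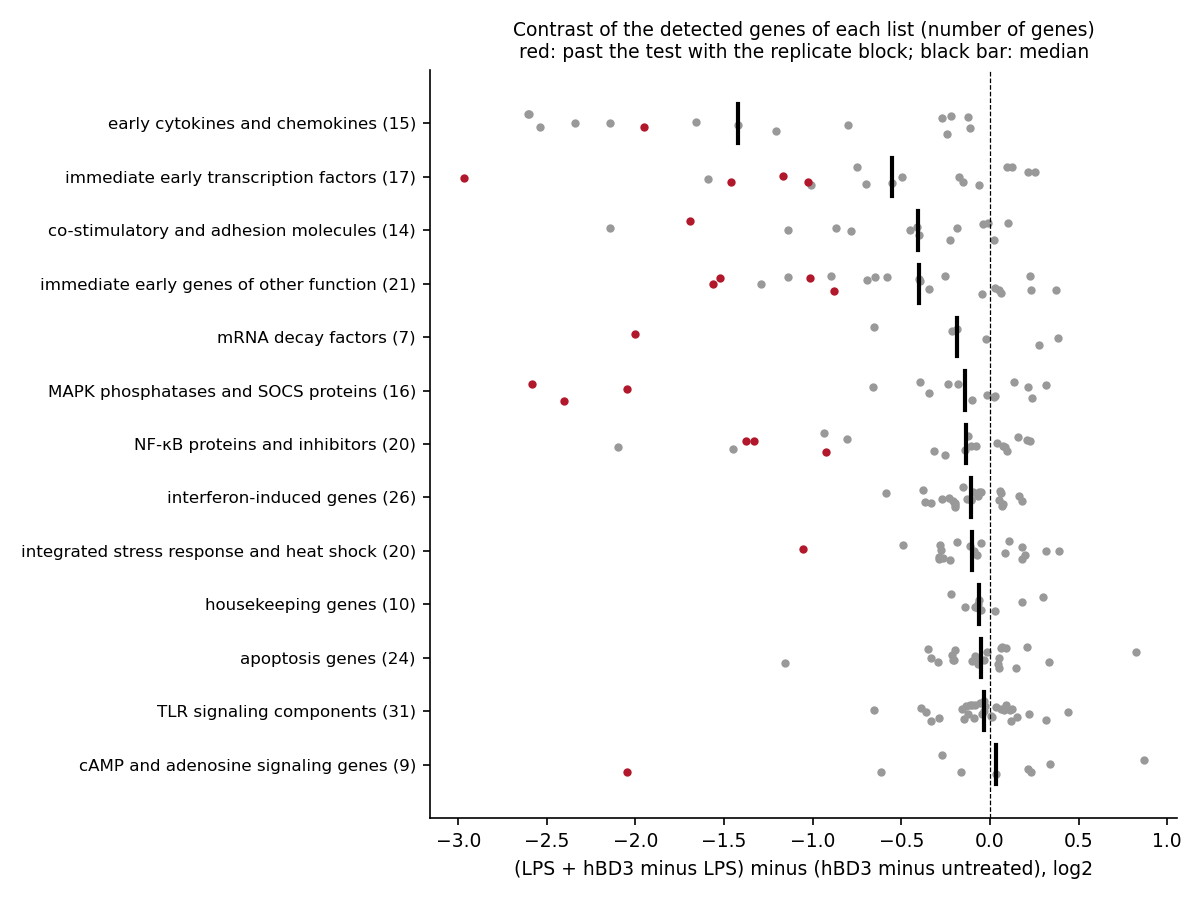
Contrast on the log2 scale (horizontal axis) of the detected genes of each list, 1 point per gene, with the number of genes in parentheses and the median as a black bar. The 15 early cytokines and chemokines lie entirely below 0 with a median of -1.42, whereas the medians of TLR signaling components and housekeeping genes are -0.04 and -0.06. Over all 29 measured early cytokines and chemokines, detected or not, the median was -0.44. The lists were chosen with earlier results of these data known.

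Positive contrasts, where LPS raised a gene more or lowered it less in the presence of hBD3, did not pass the test with 12 arrays. The named genes with the lowest p were Sparc, a matricellular protein (0.77 ± 0.13, adjusted p 0.0932 with the block), the centrosomal gene Sfi1 (0.66, 0.0932) and the histone genes H2ac10 and H2ac24 (0.64 and 0.79, 0.102 and 0.137), and they were singled out after their values were seen. H2ac24 had log2 signals of 10.43, 11.07 and 11.12 with LPS plus hBD3, 9.34, 10.09 and 10.33 with LPS, 10.44, 10.68 and 10.94 with hBD3 and 10.19, 10.59 and 10.78 untreated, so each LPS array lay below the untreated array of the same number. Histone H2A genes are close copies of each other, and their probes may share targets.

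For genes with a negative mean LPS response, the contrast rested on LPS replicate 1. Of 39 detected genes with a mean LPS response below -0.5, 35 had a positive contrast, but the median was 1.90 on replicate number 1 and -0.09 and -0.48 on numbers 2 and 3. The same array set the values of Gnas, the α subunit of the stimulatory G protein, whose log2 signal was 8.72, 8.79 and 9.32 with LPS plus hBD3 and 6.04, 8.83 and 9.32 with LPS, and of Bcl2l1, the survival factor Bcl-xL (7.99, 8.06 and 7.93 with LPS plus hBD3 and 5.60, 7.85 and 8.07 with LPS). Without that array their contrasts were -0.16 and -0.08, against 0.87 and 0.82 with all arrays.

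Leaving out LPS replicate 1 raised the number of probes past the blocked test to 69, of which 62 were negative (0.241% of all probes) and 7 positive (0.0272%). All 20 probes called with 12 arrays were among the 62. Without the block, 17 probes passed, all negative and all among the 69. The lowest limma adjusted p were those of Dusp2 (0.000892 and, for its brightest probe, 0.00397), Cdc42ep2 (0.00247) and Ppp1r15a (0.00385). The cytokines were among the genes added with the block: Il1b (-3.14, adjusted p 0.00046), Cxcl2 (-3.00, 0.00341), Cxcl1 (-2.75, 0.0141), Tnfsf9 (-2.62, 8.96e-07) and Tnf (-2.58, 0.00165). In all, 13 early cytokines and chemokines passed, against 1 with all arrays, although Il1a, Ifnb1 and Edn1 among the 13 were detected on only 2 of 12 arrays and in no whole group. Other genes past this test were Nfkbiz (-2.26, 0.00193), Nfkbia (-1.69, 0.000404), the cyclin-dependent kinase inhibitor Cdkn1a (-1.40, 0.000715), Cd83 (-1.40, 0.0122), Fos (-1.11, 0.00568), Isg15 (-0.62, 0.0274) and the interferon-β gene Ifnb1 (-0.96, 0.00143). The 7 positive probes included those of Mgp (1.94, 0.0072), Sparc (0.86, 0.00477) and Ccn2 (0.94, 0.0163), which encode matrix-associated proteins, named after their values were seen. Of the 10 measured stromal and erythroid markers 6 were detected on no array. The log2 of their summed signal lay between 8.93 and 9.19 with LPS plus hBD3, 8.90 and 9.13 with LPS, 8.97 and 9.07 with hBD3 and 8.89 and 9.12 untreated. The part of such cells in these values was not tested.

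Among the 18 genes, Egr1, Socs3, Dusp2, Gdf15, Ier3 and Phlda1 passed the blocked test in all 12 fits that left out 1 array, with adjusted p of at most 0.0430. Csrnp1 passed in 11, Nfkbid in 10, Junb in 9, Ppp1r15a and Zfp36 in 8, Dusp1 in 6, Irf1 in 5, Plk2 in 3, and Cd69, Cdc42ep2, Nfkbie and Tnfaip3 in 2. The contrast of each of the 18 stayed below 0 in every such fit. With background correction and all arrays, Ier3 did not pass the blocked test. Neither did Cd69, Cdc42ep2, Dusp1, Irf1, Nfkbid, Nfkbie, Tnfaip3 and Zfp36. Cd69 and Plk2 did not pass it with median scaling. All 18 passed without LPS replicate 1, and the loss of hBD3 replicate 2, LPS plus hBD3 replicate 2 or untreated replicate 3 left 7, 10 and 10 probes past the test.

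**Figure D5:**
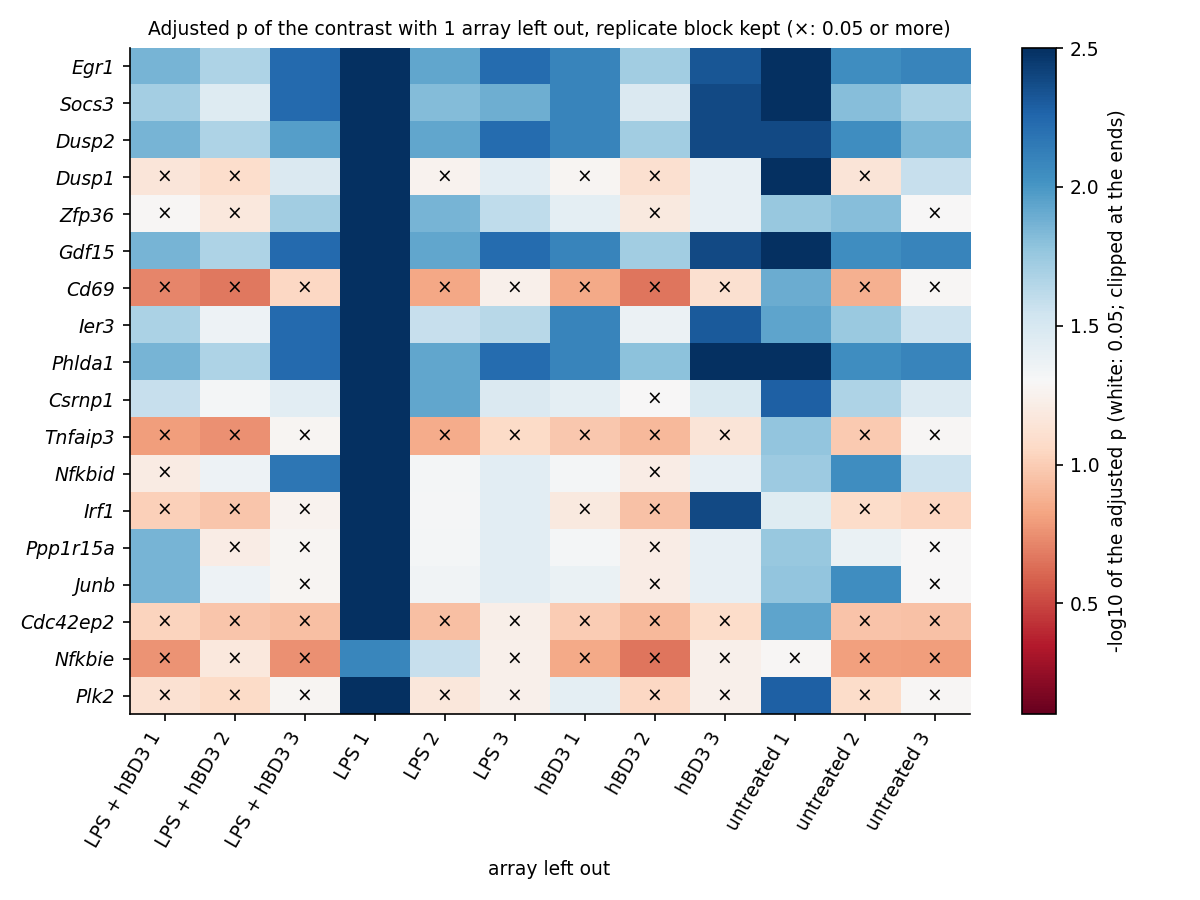
Adjusted p of the contrast, as -log10 in color, for the 18 genes (rows) in fits with the block that leave out 1 of the 12 arrays (columns), where a cross marks 0.05 or more. The rows of Egr1, Socs3, Dusp2, Gdf15, Ier3 and Phlda1 hold no cross, and the column of LPS replicate 1 holds none for any gene.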

How the data were processed

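Arrays were grouped by their titles. One deposited file holds signal intensities, the authors' BeadStudio summary for each probe without normalization between arrays, with a detection p-value for each probe and array as given in the file headers. Another holds intensities quantile normalized by the authors, used as an alternative. The signals (25697 probes, no filter) were quantile normalized and log2 transformed, and limma 3.58.1 in R 4.3.3 was fitted to all 12 arrays with a mean per group, without and with the replicate number as a fixed block, with Benjamini-Hochberg adjustment over the whole set of probes. limma is also named, without a version, in the submitters' processing notes. The number of arrays, 3 per group, limits the precision. The 18 pairs of arrays with equal numbers in different groups had deviations from the group means that correlated at 0.0726 to 0.662 over all probes and 0.150 to 0.772 over the 7893 probes detected on all arrays, and no source states the pairing. Without the block, the p-values measure the spread between the samples within groups. With it, they measure the spread left after differences between replicate numbers are removed.

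A gene was read from its probe with the highest mean signal. It was detected where the detection p was under 0.01 on all arrays of at least 1 group. Probes were named from the platform table (23978) or, for 223, from the study's supplementary table, with 1496 unnamed. The fits were tested on simulated data with known changes, in which arrays of equal replicate number shared an effect. Such data cannot show whether equal numbers belong together in these arrays. The genes and lists were chosen with earlier results of these data known. Named were the genes past the test, up to 30 in each direction, and the 4 detected genes of each list with the largest contrast. From the genes raised above 1 by LPS came the 6 with the most negative contrast and the 6 with the smallest in size. Tnf, Il1b, Cxcl1, Cxcl2, Egr1, Actb and Gapdh completed the rule. One gene named by this rule is not reported here. Ccl3, Ccl4, Ifnb1 and the genes with positive contrasts outside the lists were added after their values were seen. Alternatives were background correction (neqc, offset 16), median scaling, the deposited normalized table, probes detected on at least 3 arrays, a single probe per gene, weighted arrays, a robust variance with trend, a random block, and leaving out single arrays or all 4 arrays of a number.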

Additional observations from a re-analysis of the deposited data

Results flagged for a closer look

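The effect of hBD3 differed with and without LPS, by the blocked limma test, for the 18 genes past the threshold, with contrasts of -2.96 (Egr1), -2.58 (Socs3), -2.40 (Dusp2), -2.05 (Dusp1), -2.00 (Zfp36), -1.95 (Gdf15), -1.69 (Cd69), -1.56 (Ier3), -1.52 (Phlda1), -1.46 (Csrnp1), -1.38 (Tnfaip3), -1.33 (Nfkbid), -1.17 (Irf1), -1.06 (Ppp1r15a), -1.03 (Junb), -1.02 (Cdc42ep2), -0.93 (Nfkbie) and -0.88 (Plk2). In 5 of the other named genes the effect of hBD3 was below 0 on every replicate number with LPS and above 0 on every number without LPS, and their contrasts were -1.66 (Ccl4), -1.42 (Ccl3), -1.29 (Rgs1), -0.66 (Dusp8) and -0.59 (Isg15). In these 5 the opposite signs across replicate numbers were not tested in themselves, and the test of the contrast was not passed with all 12 arrays.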

How the results depend on the processing

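Without the block, 0 probes passed, and 0 also with background correction and the deposited normalized table. The count was 5 with median scaling, 7 with probes detected on at least 3 arrays, 12 with array weights, 8 with a trended and robust variance, 1 with 1 probe per gene, 9 with a random replicate block and 20 with the fixed replicate block, all negative. Leaving out 1 array gave 0 to 17, the highest without LPS replicate 1. With the block, 20 probes became 11 with background correction and 40 with array weights (38 negative, 2 positive), and 7 (without hBD3 replicate 2) to 69 (without LPS replicate 1) with 1 array left out. Without all 4 arrays of replicate number 1, 2 or 3 the counts were 93 (72 negative, 21 positive), 0 and 8, and without number 2 the negative and positive probes at an unadjusted p under 0.05 were 397 and 292. The other settings gave 20 to 24. The share of the LPS response left, 25.7%, was 12.3% with median scaling, 23.6% relative to the median of the detected genes, and 23.1% to 33.4% with 1 array left out.

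The numbers of the arrays were not shown to pair them: 1 of 18 correlations was under 0.1 over all probes, although 11 of 12 arrays deviated most like the arrays of their own number. The contrasts of the 18 genes kept their sign under every setting tried. Signs that turned belonged to genes not past the test: Khsrp (-0.06), Tlr8 (-0.28), Bcl2l1 (-0.08), Gnas (-0.16) and Adcy7 (-0.13) without LPS replicate 1, Tlr8 (-0.15), Adcy7 (-0.04) without untreated replicate 1 and likewise with array weights (-0.15 and -0.03), Tlr8 (-0.07), Gnas (-0.09), Adcy7 (-0.05) and Actb (-0.08) without number 1, Elavl1 (-0.12), Ywhaz (-0.16) and Actb (-0.14) with median scaling, and Actb without LPS plus hBD3 replicate 1 (-0.06), LPS replicate 3 (0), hBD3 replicate 1 (-0.03) or untreated replicate 2 (-0.01). Leaving out 1 array gave -0.06 to 0.64 for Khsrp, -0.28 to 0.89 for Tlr8, -0.08 to 1.31 for Bcl2l1, -0.16 to 1.40 for Gnas, -0.13 to 0.65 for Adcy7 and -0.06 to 0.11 for Actb. The causes were not tested.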
